A study of Canis lupus familiaris and Felis catus with 4 samples.

Results

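Mature miRNAs in urinary exosomes of cats with normal renal function (NR cats) were compared with those of dogs with normal renal function (NR dogs). Of 2031 mature miRNA entries in the table, 244 had a read in at least 1 of the 2 libraries, and the 95 entries with at least 10 reads summed over both were compared. The study collected urine from cats and dogs with normal renal function or with kidney disease (KD) and pooled the exosome RNA of each group into 1 small RNA library. The NR cat pool held 43 animals and the NR dog pool 37, and the labels name no treatment of either. The KD pools, whose values are set beside those of the NR pools, held 45 cats and 47 dogs. Both species were aligned to the mouse genome mm10, so an entry is a mouse miRNA name and position, and a cat or dog read counted only where it aligned to mouse. The labels give no age, sex or breed for the pools. For the cats the paper does, with both sexes, several breeds and more castrated or spayed than intact animals. Its KD cats were older on average than its NR cats. Each species is represented by a single pooled library, so no test between them was possible and intervals cover counting error only. Species and any difference in how the cat and dog urine was collected, stored or sequenced cannot be told apart. In these bulk pools fewer vesicles from a cell type and less miRNA per vesicle cannot be told apart either.

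miRNAs are short RNAs cut from a hairpin precursor, whose 5p or 3p arm is loaded into an Argonaute protein and pairs with target mRNAs. Pairing rests mainly on the seed, the bases near the 5′ end, so miRNAs with the same seed form a family with overlapping targets. Urinary exosomes are vesicles released by cells that line the nephron and the urinary tract, and they carry miRNAs of those cells, with a contribution from blood-derived cells where these enter the urine.

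The sequences on which the comparison turned are given from the deposited table as mouse entries, written as DNA (T for U), 5′ to 3′, with the seed (bases 2 to 8) in capitals. The first set holds miR-10a and miR-10b, the most abundant miRNAs of both libraries, and kidney and epithelial miRNAs, among them the entries with the lowest cat to dog ratios, with their seed or transcript partners.
miR-10a-5p: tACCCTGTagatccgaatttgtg
miR-10b-5p: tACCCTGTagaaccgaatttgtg
miR-192-5p: cTGACCTAtgaattgacagcc
miR-215-5p: aTGACCTAtgatttgacagac
miR-194-5p: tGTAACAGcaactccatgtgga
miR-141-3p: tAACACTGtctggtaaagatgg
miR-200a-3p: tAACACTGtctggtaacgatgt
miR-200b-3p: tAATACTGcctggtaatgatga
miR-200c-3p: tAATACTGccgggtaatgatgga
miR-205-5p: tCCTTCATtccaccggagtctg
Positions are counted from 1 at the 5′ end of the first-named miRNA. miR-10a-5p and miR-10b-5p differ by 1 base (T12A), outside the seed. miR-192-5p and miR-215-5p share a seed and differ by C1A, A12T and C20A. miR-141-3p and miR-200a-3p share a seed and differ by A17C and G22T.

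The second set holds miRNAs that were higher in NR cats, those at 0 reads in NR dogs included, miR-146b-5p as the seed partner of miR-146a-5p, and 4 of the let-7 family to show its common seed.
miR-142-5p: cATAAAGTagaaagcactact
miR-142-3p: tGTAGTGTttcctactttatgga
miR-146a-5p: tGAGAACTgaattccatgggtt
miR-146b-5p: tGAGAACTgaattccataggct
miR-150-5p: tCTCCCAAcccttgtaccagtg
miR-434-3p: tTTGAACCatcactcgactcct
miR-127-3p: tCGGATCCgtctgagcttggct
miR-320-3p: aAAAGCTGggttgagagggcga
miR-16-5p: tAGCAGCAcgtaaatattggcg
miR-22-3p: aAGCTGCCagttgaagaactgt
let-7a-5p: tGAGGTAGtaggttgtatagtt
let-7f-5p: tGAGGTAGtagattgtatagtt
let-7g-5p: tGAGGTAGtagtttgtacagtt
let-7i-5p: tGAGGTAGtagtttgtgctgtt
miR-146a-5p and miR-146b-5p differ by G18A and T21C, and let-7a-5p and let-7f-5p by G12A. The 95 entries held 86 distinct mature sequences and 60 distinct seeds, and 18 seeds were shared by 2 or more entries, 53 entries in all.

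The 2 libraries were of similar depth, with 18704 miRNA reads in NR cats and 20878 in NR dogs, and the 95 entries took 98.4% and 99.3% of them. Of the 244 entries with a read, 149 were found in both libraries, 66 in NR cats alone and 29 in NR dogs alone. A count of 0 was taken as 3 reads, a share of 0.0160% in NR cats and 0.0144% in NR dogs. The entries with 10 reads, just inside the threshold, numbered 7, from miR-142-3p with 10 in NR cats and 0 in NR dogs to miR-99a-5p with 3 and 7. Another 5 entries had 9 reads and stayed outside, among them miR-29c-3p with 7 in NR cats and 2 in NR dogs. miRNAs of kidney tubule and urinary epithelium were present in both libraries. Liver miR-122-5p had 0 reads in both, the skeletal muscle miRNAs 1 and 0, and the neural miR-9 and miR-124 entries 2 and 1.

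The NR dog library was dominated by miR-10 and the NR cat library less so. The miR-10a and miR-10b entries took 44.7% of NR cat reads (exact binomial 95% interval, 44.0 to 45.5) and 74.9% of NR dog reads (74.4 to 75.5). The NR cat library stood apart here, since the same entries took 73.3% of KD cat reads and 70.4% of KD dog reads. Because 1 family took that much, its share bears on the share of every other entry, and ratios are also given over the 10335 NR cat and 5232 NR dog reads left without miR-10a and miR-10b. Leaving them out lowered every other log2 ratio by 1.14. The 10 most abundant entries took 72.0% of NR cat and 87.1% of NR dog reads, and 15 of the 20 most abundant were common to both libraries. The inverse Simpson index, an effective number of equally abundant entries, was 6.67 in NR cats and 2.76 in NR dogs, beside 2.38 in KD cats and 3.14 in KD dogs.

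By share of miRNA reads, 46 of the 95 entries (48.4%) were more than 2-fold higher in NR cats and 10 (10.5%) more than 2-fold higher in NR dogs. The median log2 ratio of cat to dog was 0.91. Without miR-10a and miR-10b, 24 of 93 (25.8%) were more than 2-fold higher in NR cats and 27 (29%) in NR dogs, and the median was -0.21. The interval lay above 0 for 51 entries, below 0 for 6 and included 0 for 38 by share, against 23, 28 and 42 without miR-10. Thus the balance of the 2 species turned with the scaling, which moves the ratios by a constant and leaves their order as it was. Under 6 scalings of the same reads, 44 entries were higher in NR cats under each and 11 were higher in NR dogs under each. Both miR-10 entries were higher in NR dogs under the 5 scalings that hold them, and 38 entries turned. Past 2-fold under all 6 scalings were 24 entries in NR cats and 5 in NR dogs.

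**Figure D1:**
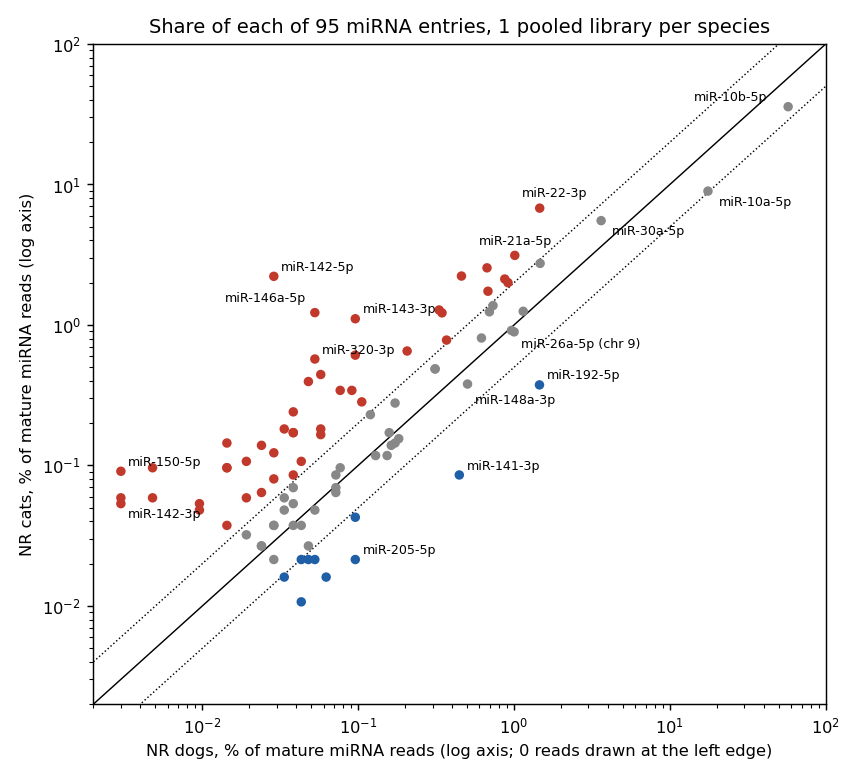
Share of mature miRNA reads in NR dogs (horizontal, percent, log axis) and NR cats (vertical, percent, log axis) for the 95 entries, 1 pooled library per species. The solid line marks equal shares and the dotted lines a 2-fold difference, 46 entries in red lie more than 2-fold higher in NR cats, 10 in blue more than 2-fold higher in NR dogs, and the 3 entries at 0 reads in NR dogs are drawn at the left and coloured by their bound.

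**Figure D2:**
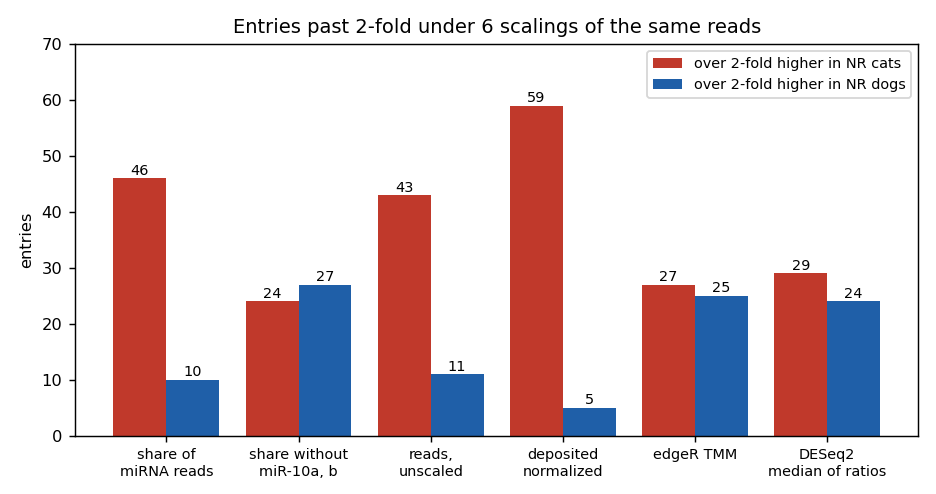
Number of entries more than 2-fold higher in NR cats (red) and in NR dogs (blue) under 6 scalings of the same reads. The counts run from 46 against 10 by share to 24 against 27 without miR-10a and miR-10b, and from 59 against 5 with the deposited factors to 27 against 25 with edgeR.

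The miR-10 family, whose genes lie in the Hox clusters, was lower in share in NR cats. miR-10b-5p had 6690 reads in NR cats (35.8%) against 11980 in NR dogs (57.4%), a log2 ratio of -0.68 (-0.73 to -0.64). miR-10a-5p had 1678 and 3665 reads, 8.97% and 17.6%, a ratio of -0.97 (-1.05 to -0.88). Neither passed 2-fold by share. In the related miR-99 entries, miR-99a-5p had 3 and 7 reads and miR-99b-5p 22 and 32, and the direction of miR-99b-5p turned with the scaling. Of the 4 members of this list, 0 passed 2-fold in cats and 1, miR-99a-5p, in dogs, where 48.4% and 10.5% of all entries did. The list median was -0.81 beside 0.91 over all entries.

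Among miRNAs known for the kidney tubule, miR-192-5p was higher in NR dogs and the others rested on few reads or went the other way. miR-192-5p, which is abundant in tubule and gut epithelium and is induced by p53, had 70 reads in NR cats and 304 in NR dogs. Its share was 3.89-fold higher in dogs, a log2 ratio of -1.96 (-2.36 to -1.58), or -3.10 without miR-10. miR-215-5p, of the same seed, had 3 and 13 reads with the same ratio, -1.96. miR-194-5p, transcribed with miR-192 from one primary transcript, had 2 and 9 reads at its chromosome 19 copy (6264658 to 6264679 in mm10), beside miR-192 at 6264857 to 6264877. The chromosome 1 copy of miR-194 had 5 and 2 reads, and the copies together had 7 and 11, a log2 ratio of -0.49 (-2.10 to 1.00). miR-204-5p, another tubule miRNA, went the other way with 53 in cats against 22 in dogs, 1.43 (0.69 to 2.21). In this list 3 of 4 members passed 2-fold in dogs, where 10.5% of all entries did, and 1 in cats, where 48.4% did. miR-194-5p and miR-215-5p reached the minimum of reads mainly through the dog library. The median was -1.78, with copies summed it was -1.12, and with at least 50 reads, which leaves miR-192-5p and miR-204-5p, it was -0.27.

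The miR-30 family, abundant in tubule and podocytes, differed little. miR-30a-5p had 1034 and 756 reads, 5.53% and 3.62%, a log2 ratio of 0.61 (0.47 to 0.75). miR-30d-5p had 234 and 239, 0.13 (-0.14 to 0.39), and miR-30e-5p 1.24% and 0.695% of reads, 0.84 (0.53 to 1.15). None of the 6 members passed 2-fold by share. Their median of 0.43 became -0.71 without miR-10, and 2 then passed 2-fold in dogs, where 29% of all entries did.

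Within the miR-200 family, which holds epithelial cells in an epithelial state, 1 member stood apart. miR-141-3p was read 16 times in NR cats against 93 in NR dogs, 5.21-fold higher in dogs and a log2 ratio of -2.38 (-3.25 to -1.61). Its seed partner miR-200a-3p had 13 and 15 reads, -0.05 (-1.24 to 1.12). miR-200c-3p, the neighbour of miR-141 on one primary transcript, had 4 and 10, -1.16 (-3.29 to 0.63). The other transcript of the family held together, since miR-200b-3p had 29 and 38 reads and miR-429-3p 9 and 11, with miR-200a-3p between them. The directions of these 3 turned under the deposited scaling. miR-205-5p, a marker of stratified epithelium and urothelium, had 4 and 20 reads, -2.16 (-4.17 to -0.59). miR-203-3p, a miRNA of differentiating stratified epithelium, had 31 and 12, 1.53 (0.53 to 2.62). Of these 7 entries 3 passed 2-fold in dogs and 1 in cats, where 10.5% and 48.4% of all entries did, with a median of -0.23. Without miR-10, 6 passed in dogs and 0 in cats, where 29% and 25.8% of all entries did.

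**Figure D3:**
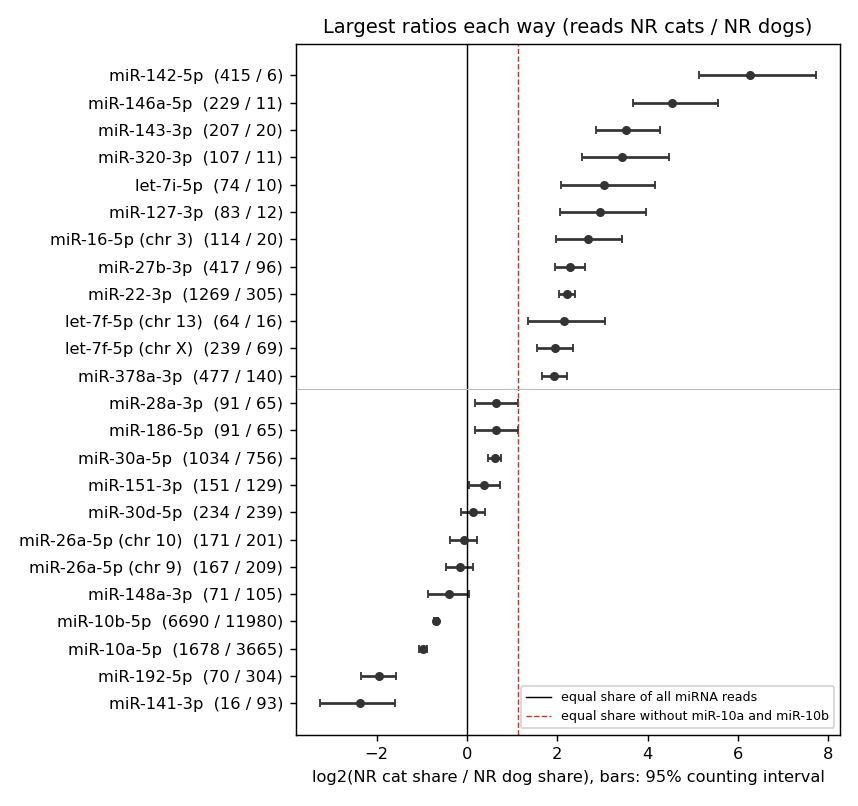
The 12 highest and 12 lowest log2 ratios of cat to dog share among entries with at least 50 reads in the higher library, with reads in NR cats and NR dogs in parentheses. Points are ratios and bars exact conditional 95% intervals for counting error, from miR-142-5p at 6.27 to miR-141-3p at -2.38. The dashed line at 1.14 marks an equal share without miR-10a and miR-10b, which does not apply to the miR-10 points.

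Among entries with reads in both libraries, the largest ratios in NR cats were those of miR-142-5p and miR-146a-5p, both in the leukocyte list. miR-27a-5p, which is not in that list, came next at 4.33 on 18 and 1 reads. miR-142-5p, from a hairpin used throughout the blood lineages, had 415 reads in NR cats (2.22%) and 6 in NR dogs (0.0287%). Its share was 77.2-fold higher in cats, a log2 ratio of 6.27 (5.14 to 7.72), or 5.13 without miR-10. It was the 1 entry among the 10 most abundant of NR cats with fewer than 10 reads in NR dogs. miR-146a-5p, a feedback inhibitor of NF-kB signalling, had 229 and 11 reads, 23.2-fold, a ratio of 4.54 (3.67 to 5.56). The paper links urinary miR-146a in mice with kidney disease mainly to tubulointerstitial lesions. miR-150-5p, a lymphocyte miRNA, was read 17 times in NR cats and was at 0 in NR dogs. With the 0 taken as 3 reads it was 6.33-fold higher, and its log2 interval began at 2.20. Without miR-10 the 3-read value was a log2 ratio of 1.52. miR-142-3p had 10 and 0, 3.72-fold in the same way, with the interval from 1.32, and its 3-read value was 0.75 without miR-10. The paper lists far more reads for miR-142 in NR cats than its mature entries hold. The miR-142 ratios given here cover the mature entries only. Below the minimum, miR-223-3p of neutrophils and monocytes had 5 and 0 reads and miR-155-5p of activated lymphocytes and macrophages 4 and 0. The 4 entries over the minimum passed 2-fold in cats by share, where 48.4% of all entries did, but miR-142-3p and miR-150-5p reached the minimum through NR cats alone. The list median was 4.92 with 0.5 reads added and 3.60 with the entries at 0 taken at their bound. The 6 entries summed to 680 reads in NR cats and 17 in NR dogs, 3.64% and 0.0814%, a log2 ratio of 5.48 (4.79 to 6.27), or 4.34 without miR-10. The urine was spun at low speed before the exosome step to remove cells, by the study's methods for cats. It had been stored frozen, and the paper names cell lysis on freezing as a possible source of contamination. The part of leukocytes in the urine in other results higher in NR cats was not tested.

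The erythroid miRNAs differed less. miR-486-5p counted 325 in NR cats against 142 in NR dogs, a log2 ratio of 1.35 (1.06 to 1.65), and miR-3107-5p 257 and 153, 0.91 (0.61 to 1.21). These entries hold the same mature sequence on opposite strands of one locus, so their reads cannot be told apart. miR-451a, made without Dicer in red cell precursors, had 32 and 8, 2.16 (1.01 to 3.49). Of the 3 members 2 passed 2-fold in cats and 0 in dogs, where 48.4% and 10.5% of all entries did. The summed erythroid reads, 615 and 303, gave 1.18 by share and 0.04 without miR-10.

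The let-7 family, which represses growth and proliferation genes, was higher in NR cats throughout. All 9 members, of a single seed, passed 2-fold in cats, where 48.4% of all entries did. Without miR-10, 6 of them passed, where 25.8% of all entries did. let-7f-5p at chromosome X had 239 and 69 reads, a log2 ratio of 1.95 (1.56 to 2.36). let-7a-5p at chromosome 9 had 122 and 43, 1.66 (1.15 to 2.20). let-7i-5p had 74 and 10, 3.05 (2.09 to 4.17), and let-7b-5p 18 and 3, 2.74 (0.97 to 5.15). The family ranged from let-7a-5p at chromosome 9 to let-7i-5p. Its median was 2.12 beside 0.91 over all entries, and the 9 entries kept their direction under the 6 scalings. Summed over its 12 entries with a read, the family had 663 reads in NR cats against 180 in NR dogs.

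The members of the miR-17-92 and miR-15/16 groups over the minimum were also higher in NR cats. In the miR-17-92 clusters, which carry oncogenic miRNAs, miR-92a-3p at chromosome 14 had 228 and 72 reads, 1.82 (1.43 to 2.23), and miR-25-3p had 27 and 3, 3.33 (1.63 to 5.69). The 3 members of 15 entries, the copies of miR-92a-3p and miR-25-3p, share a seed, and the rest had too few reads to be compared. All 3 passed 2-fold in cats, where 48.4% of all entries did, with a median of 2.58. Without miR-10, 2 of them passed, where 25.8% of all entries did. In the miR-15/16 family, which targets BCL2 and cell cycle genes, miR-16-5p at chromosome 3 had 114 and 20 reads, 2.67 (1.98 to 3.43). Its chromosome 14 copy, of the same mature sequence, had 26 and 5. Thus 2 of 2 members passed, by share and without miR-10, with a median of 2.53 by share. These directions were kept under the 6 scalings.

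Of the miRNAs linked to injury and fibrosis, miR-22-3p was higher in NR cats under all 6 scalings. It had 1269 reads in NR cats (6.79%) against 305 in NR dogs (1.46%), 4.64-fold, a log2 ratio of 2.21 (2.03 to 2.40). It stayed past 2-fold under each. miR-21a-5p, raised in fibrosis and inflammation in many tissues, had 585 and 211, 1.63 (1.40 to 1.86), and was no longer past 2-fold without miR-10 (0.49), with edgeR (0.69) or with DESeq2 (0.73). miR-29a-3p, which represses collagen genes, had 18 and 16, 0.33 (-0.73 to 1.40). Of these 3 members 2 passed 2-fold in cats by share, where 48.4% of all entries did, and 0 in dogs, with a median of 1.63.

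miR-143-3p, a miRNA of smooth muscle and mesenchyme, was read 207 times in NR cats against 20 in NR dogs, 11.6-fold, a log2 ratio of 3.53 (2.87 to 4.27). Its usual partner miR-145a-5p was at 0 reads in both libraries, as were the miR-199 and miR-214 entries of the list. miR-320-3p, made from a short hairpin without Drosha, had 107 and 11, 3.44 (2.54 to 4.49). Both stayed past 2-fold under all 6 scalings. The imprinted miR-127-3p had 83 and 12, 2.95 (2.07 to 3.96). miR-434-3p, of the same imprinted cluster, was read 11 times in NR cats and was at 0 in NR dogs. With the 0 taken as 3 reads it was 4.09-fold higher, with the log2 interval from 1.49, and its 3-read value was 0.89 without miR-10. No dog RefSeq symbol matched miR-434-3p by name.

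In the group of miR-23, miR-27 and miR-24, miR-27b-3p had 417 and 96 reads, 2.28 (1.95 to 2.61), and its near twin miR-27a-3p, which differs by C19T, had 13 and 8, 0.86 (-0.52 to 2.34). miR-23b-3p had 20 and 9 reads and miR-23a-3p 10 and 8. Of 4 members 2 passed 2-fold in cats, near the 48.4% of all entries, and the median of 1.05 became -0.09 without miR-10. miR-378a-3p, encoded in the PGC-1β gene, had 477 and 140 reads, 1.93 (1.65 to 2.21), and miR-378c 34 and 12, 1.66 (0.68 to 2.75). Both miR-378 members passed 2-fold in cats by share and neither without miR-10, where 48.4% and 25.8% of all entries did. The medians were 1.77 and 0.63.

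The miR-181 family had calls in both directions, and those in dogs rested on few reads. miR-181a-5p, linked to lymphocyte development, had 397 and 182 reads at chromosome 1, 1.28 (1.03 to 1.54), and the chromosome 2 copy a ratio of 1.13 (0.87 to 1.39). miR-181c-5p had 4 and 11, -1.30 (-3.41 to 0.45). The copies of miR-181b-5p, of 1 mature sequence, had 16 and 8 reads at chromosome 1 and 4 and 9 at chromosome 2. Together they had 20 and 17. Of 5 members 3 passed 2-fold in cats and 2 in dogs, where 48.4% and 10.5% of all entries did. Each direction held 1 copy of miR-181b-5p. The median was 1.12, with copies summed it was 0.39, and without miR-10 it was -0.03. miR-182-5p, the 1 member of the miR-183 cluster over the minimum, took 0.781% of NR cat and 0.369% of NR dog reads, 1.08, and passed 2-fold in cats by share with -0.06 without miR-10.

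miR-26a-5p, which the study followed as a renal miRNA, had nearly equal shares in NR cats and NR dogs. It had 167 and 209 reads at chromosome 9, -0.17 (-0.47 to 0.14), and 171 and 201 at chromosome 10, -0.07 (-0.38 to 0.23). miR-26b-5p had 32 and 33. None of the 3 passed 2-fold by share, where 48.4% of all entries did in cats and 10.5% in dogs, with a median of -0.07. All 3 passed in dogs without miR-10, where 29% of all entries did. miR-148a-3p had 71 and 105, -0.41 (-0.86 to 0.04), and miR-148b-3p 11 and 7, so 0 of 2 passed, with a median of 0.19. miR-191-5p had 513 and 307, 0.90 (0.69 to 1.11), and its neighbour miR-425-5p 9 and 2, so 1 of 2 passed in cats, with a median of 1.49. miR-28a-3p and miR-186-5p each had 91 and 65, 0.64 (0.17 to 1.13). In the pair miR-151 and miR-423, miR-151-3p had 151 and 129 reads, 0.39 (0.04 to 0.74), and 1 of 4 entries passed in cats, miR-423-3p, with a median of 0.13. Of these, the directions of the miR-26, miR-28a-3p, miR-148, miR-151, miR-186-5p, miR-191-5p and miR-423-5p entries turned with the scaling.

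**Figure D4:**
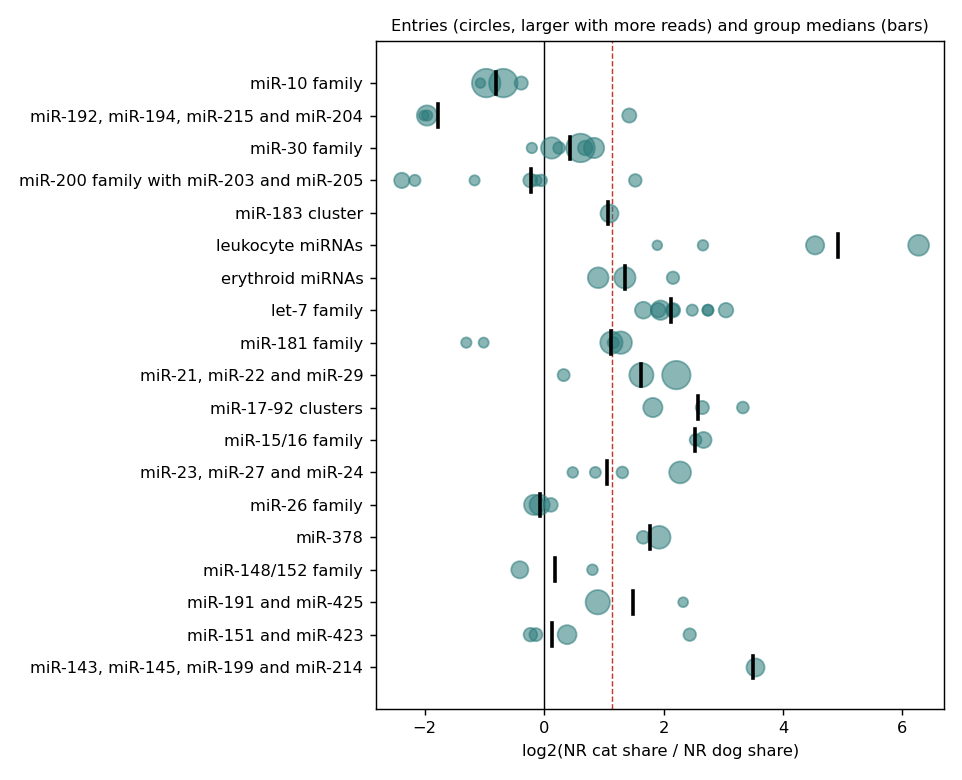
Log2 ratio of cat to dog share for the members of the 19 lists with a member (circles, larger with more reads, zeros in NR dogs at their bound) and the list medians with 0.5 reads added (black bars). The solid line marks equal shares of all miRNA reads and the dashed line an equal share without miR-10, which does not apply to the miR-10 circles, and the leukocyte list reaches farthest right while miR-192, miR-194 and miR-215 lie to the left.

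Of the miRNAs that the study chose as candidates for kidney disease, 15 entries of 12 miRNAs were measured. They include both copies of miR-26a-5p, miR-181a-5p and let-7f-5p. The miR-3107-5p entry, of the same mature sequence as miR-486-5p, was left out and stayed under 2-fold by share (0.91). By share 10 of the 15 entries were more than 2-fold higher in NR cats and 0 in NR dogs, where 48.4% and 10.5% of all entries were. Their median was 1.35 beside 0.91 over all entries. Without miR-10, 5 passed in NR cats and 2, both miR-26a-5p entries, in NR dogs, where 25.8% and 29% of all entries did. The study chose most of these miRNAs on the cat libraries, including the NR cat library, so the list is not independent evidence of a direction. It added let-7b, miR-10a and miR-191 from earlier work.

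The 2 arms of a hairpin were compared within each library, where depth and miR-10 have no part. In miR-423 the 5p arm held 22 of 56 reads in NR cats, 39.3% (26.5 to 53.2), and 27 of 34 in NR dogs, 79.4% (62.1 to 91.3), with 92.0% in KD cats and 82.6% in KD dogs. In miR-27a it held 18 of 31 in NR cats, 58.1% (39.1 to 75.5), and 1 of 9 in NR dogs, 11.1% (0.281 to 48.2). For miR-27a the KD shares were 46.7% in cats and 3.57% in dogs. Both hairpins were picked after their values were seen. In miR-30a, by contrast, the 5p arm held 98.9% in NR cats and 98.1% in NR dogs. Other hairpins were also alike, with 98.3% and 99.1% in miR-21a, 14.7% and 20.9% in miR-151, and 5.21% and 7.14% in miR-28a.

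Reads of several identical mature sequences were split over different mouse loci in like proportions in both species. The chromosome 1 copy held 51.5% of miR-181a-5p reads in NR cats and 48.8% in NR dogs. The chromosome 3 copy held 81.4% and 80% of miR-16-5p, and the chromosome X copy 78.9% and 81.2% of let-7f-5p. The chromosome 1 copy of miR-181b-5p held 80% (56.3 to 94.3) in NR cats and 47.1% (23.0 to 72.2) in NR dogs, on 20 and 17 reads. The chromosome 1 copy of miR-194-5p held 71.4% and 18.2%, on 7 and 11 reads, and the chromosome 16 copy of miR-125b-5p 83.3% and 42.9%, on 6 and 7. How a read that aligns to several copies was counted is not given in the sources used here, so copies are not independent measurements. For the same reason these splits do not show which locus a read came from. The miR-26a-5p copies had equal counts in the KD libraries, 51 and 51 in KD cats and 489 and 489 in KD dogs. A sum over copies may hold the same read more than once. Base content bore little relation to the ratio. Spearman's rho between the log2 ratio and GC content was 0.0076 over the 95 entries, which share the 2 libraries. Of the 55 entries from 5p arms 26 were higher in cats past 2-fold and 8 in dogs, and of the 37 from 3p arms 17 and 2.

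The same contrast in the KD pools used other animals of each species. There 33 of 94 entries with a read (35.1%) were higher in KD cats than in KD dogs, and the median log2 ratio was -0.47. Of 45 entries past 2-fold in NR cats with a KD read, 17 (37.8%) were also higher in KD cats, close to the share among all entries. Of the 45, 5 passed 2-fold in KD in the same direction and 13 in the other. Of the 10 past 2-fold in NR dogs, 6 were also higher in KD dogs, 4 of them past 2-fold, and 2 passed 2-fold the other way. Among all entries 61 of 94 (64.9%) were higher in KD dogs. Both directions together, 23 of 55 called entries (41.8%) kept their direction by share and 28 of 51 (54.9%) without miR-10. Spearman's rho between the NR and KD log2 ratios was 0.17 over 94 entries and 0.52 over the 34 with at least 50 reads in the higher library of each pair, all points sharing the same 4 libraries. KD cats had 23784 miRNA reads and KD dogs 63355.

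Some entries passed 2-fold in the same direction both times. miR-192-5p had 19 reads in KD cats and 737 in KD dogs, a log2 ratio of -3.86 (-4.60 to -3.21). miR-141-3p had 24 and 388, -2.60 (-3.26 to -2.01). miR-143-3p had 88 and 13, 4.17 (3.33 to 5.14), and miR-27a-5p had 7 and 1 after 18 and 1 in the NR libraries. The leukocyte miRNAs did not pass again, with miR-142-5p at 62 and 112 reads, 0.56, and miR-146a-5p at 62 and 108, 0.61. The let-7 family had a summed ratio of -0.73 (-0.999 to -0.466) in KD beside 2.04 in NR, where it was 0.90 without miR-10.

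**Figure D5:**
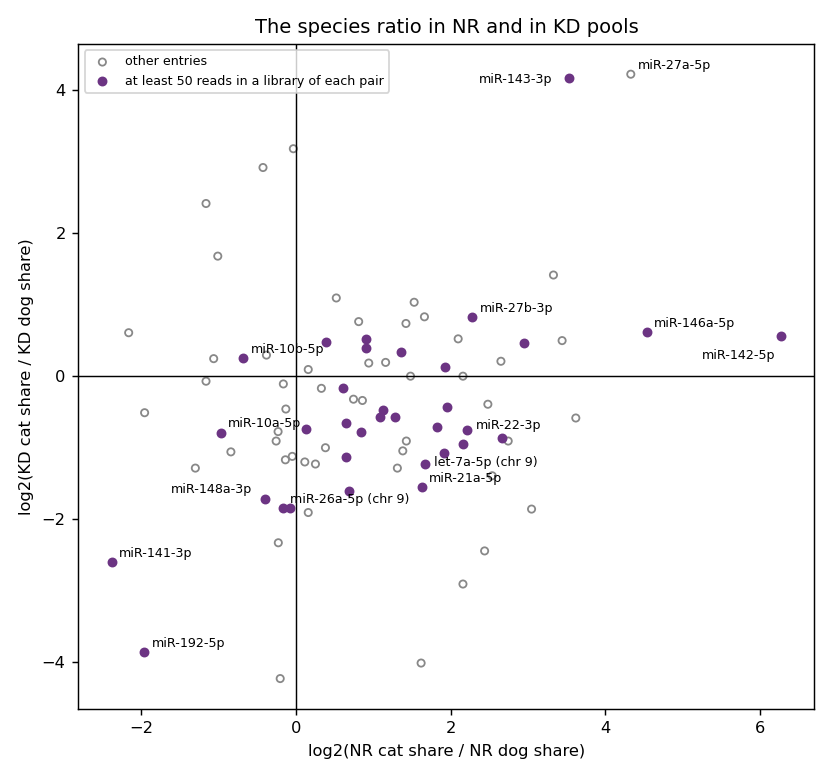
Log2 ratio of cat to dog share in the NR pools (horizontal) and in the KD pools (vertical) for entries with reads in all 4 libraries. Filled points have at least 50 reads in the higher library of each pair, miR-143-3p lies high in both, miR-192-5p and miR-141-3p lie low in both, and miR-142-5p lies far right at 6.27 with 0.56 in the KD pools.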

How the data were processed

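Exosome RNA from urine of each group was pooled and sequenced as 1 small RNA library per group. The authors trimmed adaptors and inserts under 14 nt, aligned reads to mouse mm10 with Bowtie 1.0.0 (up to 10000 locations allowed), and counted reads over annotated mouse small RNAs with StrandNGS. CASAVA 1.8.2 is listed in the submitters' notes too. The deposited counts are raw reads per mature miRNA entry, and the deposited log2 values are those counts times 1 TMM factor per library. No authors' comparison was used. The counts of NR cats and NR dogs were turned into shares of 18704 and 20878 reads, and 4 emptied lines are not analysed here.

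Members were the 95 entries with at least 10 reads over both libraries. Members and 22 lists were chosen with earlier results of these data known. The named entries were the 12 largest ratios each way with at least 50 reads in the higher library, the 10 most abundant of each library, entries at 0 in one library, up to 4 members of each list, and the study's candidates, 65 in all. Others are named as examples after their values were seen. Calls are shares over 2-fold apart, with 0 reads taken as 3, which gives the ratio called the bound. Medians added 0.5 reads. Ratio intervals are exact conditional (Clopper-Pearson) and share intervals exact binomial, both 95%. The 6 scalings were shares, shares without miR-10a and miR-10b, reads, the deposited factors, edgeR 4.0.16 TMM and DESeq2 1.42.0 median of ratios, the last pair used for factors only. Relative to shares they moved the log2 ratios by -1.14, -0.16, 0.59, -0.94 and -0.90. Minimum reads, fold, added reads and summed copies were also varied. Scripts were tested on simulated data. Python 3.11.15, scipy 1.17.1, pandas 2.3.3 and R 4.3.3 were used. Of the 95 entries, 86 matched a dog RefSeq symbol by name.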

Additional observations from a re-analysis of the deposited data

Results flagged for a closer look

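Among 34 entries with at least 50 reads in the higher library of both species pairs, 3 were more than 2-fold higher in NR cats than NR dogs and more than 2-fold lower in KD cats than KD dogs. With 1 library per group the difference was not tested. miR-21a-5p had a log2 ratio of 1.63 in NR and -1.56 in KD (143 and 1120 reads), a difference of -3.19. let-7a-5p at chromosome 9 had 1.66 and -1.23 (24 and 150 KD reads), a difference of -2.89, and its chromosome 13 copy 1.91 and -1.08, a difference of -2.99. These copies have the same mature sequence and count as 1 miRNA. Without miR-10a and miR-10b the directions were kept, but none of the 3 was past 2-fold in NR, and the chromosome 13 copy was not past it in KD either, with 0.49 and -1.41 for miR-21a-5p, 0.52 and -1.08 for the chromosome 9 copy and 0.77 and -0.93 for the chromosome 13 copy.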

How the results depend on the processing

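The count of entries higher in NR cats (46) was 24 without miR-10a and miR-10b, 27 with edgeR, 29 with DESeq2, 76 with no minimum of reads, 22 with at least 50 reads and 12 with over 150 reads in the higher library. The count higher in NR dogs (10) was 27 without miR-10, 5 with the deposited factors, 25 with edgeR, 24 with DESeq2, 2 with at least 50 reads, 5 at a fold of 3 and 1 with over 150 reads. The median log2 ratio (0.905) was -0.21 without miR-10, 0.75 with unscaled reads, 1.495 with the deposited factors, -0.036 with edgeR, 0.0056 with DESeq2 and 1.27 with no minimum. Without miR-10 the medians of the miR-183 cluster (-0.063), the miR-181 family (-0.025) and the miR-23, miR-27 and miR-24 group (-0.094) turned, as did miR-182-5p (-0.059) and miR-181a-5p at chromosome 2 (-0.013). Of the entries past 2-fold in either direction, 41.8% had the same direction in KD. The share was 54.9% without miR-10, 55.8% with edgeR and 61.9% with the deposited factors, alternatives chosen after seeing the data. No paired analysis was possible because each group has 1 library, and for the same reason no replicate could be left out. Under the other alternatives the counts were 35 to 59 in NR cats and 8 to 13 in NR dogs.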

Other observations

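The imprinted Dlk1-Dio3 miRNA cluster, active in development, was noticed after its values were seen, so these are values with no test. Its 116 entries lie between 109544588 and 109747949 on mouse chromosome 12 (mm10), and 20 had a read in NR cats or NR dogs. They summed to 148 reads in NR cats and 30 in NR dogs, a log2 ratio of 2.46 (1.89 to 3.08), or 1.32 without miR-10a and miR-10b. miR-127-3p held 83 and 12 of these reads, miR-434-3p 11 and 0, and miR-411-5p 11 and 1. The other cluster entries over the minimum were nearly level, with miR-541-5p at 7 and 6 and miR-410-3p at 6 and 4. Their log2 ratios were 0.38 (-1.42 to 2.23) and 0.74 (-1.33 to 3.01), or -0.76 and -0.40 without miR-10. In the KD libraries the cluster summed to 52 reads in cats and 93 in dogs, 0.219% and 0.147% of reads, a log2 ratio of 0.57 (0.056 to 1.08).

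Of the 9 entries with no dog RefSeq symbol of the same name, some had more reads in NR cats and some did not. In NR cats and NR dogs, miR-3107-5p had 257 and 153 reads, let-7i-5p 74 and 10, miR-378c 34 and 12, and miR-434-3p 11 and 0. The rest had few reads, with miR-2137 at 12 and 5, miR-295-3p at 9 and 7, and miR-541-5p at 7 and 6. miR-298-5p had 7 and 8, and miR-470-5p 8 and 20.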
